A study of Mus musculus with 48 samples.

Results

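The step described here is that from splenic monocytes to pre-red pulp macrophages (pre-RPMs) in mice labelled IL1RL1-/-, that is, without the receptor for the cytokine IL-33. It was measured by RNA-seq in 8 of the 48 samples of the series, all 4 libraries of monocytes and all 4 of pre-RPMs from this genotype as labelled. The series holds 24 RNA-seq libraries, of monocytes, pre-RPMs and red pulp macrophages (RPMs) from wild-type and IL1RL1-/- mice, and 24 ATAC-seq samples, which were not analysed here. The comparison asks which transcripts separate the cell that enters the spleen from the intermediate that precedes the mature RPM when IL1RL1 is missing.

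The IL1RL1-/- animals were male mice of 10 weeks on a Balb/c background with no treatment named in the labels, and each library came from a single animal. Monocytes were sorted as Ly6Glo CD11bhi F4/80- splenocytes and pre-RPMs as Ly6Glo CD11bhi F4/80lo splenocytes, so that the F4/80 gate is what divides the 2 groups. RPMs, used below only for reference levels, were sorted as Ly6Glo CD11blo/- F4/80hi cells. The labels name no promoter or cell type that would restrict the deletion. CD11b and F4/80 are also found on other leukocytes of the spleen, such as NK cells and eosinophils. The labelled gates name no lymphocyte marker. The study's cytometry also gated for low NK1.1 and for low side scatter, which removes granular cells. Neither is named in the labelled gates of these sorts, and whether either kept other cells out of these libraries was not tested. Wild-type mice had the same sex, age and background.

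RPMs are the resident macrophages of the splenic red pulp. They engulf aged red blood cells, break down their heme with heme oxygenase and return the iron to the circulation, and their identity depends on the transcription factor SPIC. They can be renewed from blood monocytes, which pass through a CD11bhi F4/80lo stage before they acquire high F4/80 and low CD11b. IL-33 signals through IL1RL1 and the shared IL-1 receptor accessory protein to MYD88, and besides macrophage precursors the receptor is carried by mast cells, basophils, eosinophils and subsets of lymphocytes.

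The 8 libraries held 3562367 to 5216045 counts each, and 18917 to 20922 genes had a count. A single transcript, the ribosomal RNA-derived Gm42418, took 24.4% to 34.9% of them, with no difference between the groups that passed an exact 2-sided permutation test (p = 0.4, where 4 against 4 allows no p below 0.0286). Mitochondrial transcripts took 7.32% ± 0.748 (SD, n = 4) of the counts in monocytes and 8.35% ± 1.32 (SD, n = 4) in pre-RPMs (exact 2-sided permutation test, p = 0.257). Levels are given as CPM, the counts relative to the library's total scaled by a TMM factor, where 1 count is worth 0.17 to 0.298 CPM. Fold changes are log2 values of pre-RPMs over monocytes with their standard error (SE), from edgeR's quasi-likelihood test on the counts, 4 libraries against 4. Genes with a Benjamini-Hochberg adjusted p below 0.01 that changed by more than 1 on the log2 scale were called, and rose or fell is written of called genes. The p-values measure the spread between single mice.

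Il1rl1 itself, at chromosome 1, 40429570 to 40465415 on the plus strand of GRCm38 (ENSMUSG00000026069), had reads in all 8 libraries. The counts were 51, 73, 71 and 64 in monocyte replicates 1 to 4 and 50, 76, 42 and 65 in pre-RPM replicates 1 to 4, or 14.1 ± 1.44 CPM and 12.3 ± 0.463 CPM (SD, n = 4). In the wild-type libraries it stood at 3.19 ± 1.05 CPM in monocytes and 4.26 ± 1.06 CPM in pre-RPMs (SD, n = 4). The level was thus higher in the libraries labelled IL1RL1-/- than in wild type, which does not follow from the label by itself. A gene-level count does not show which exons the reads came from, so whether a disrupted transcript was read was not tested, and the text writes of libraries labelled IL1RL1-/-. Between the 2 cell types Il1rl1 did not pass the test (log2 fold change -0.19 ± 0.14, adjusted p = 0.398) and their values overlapped.

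The genes of the sorting markers were examined next. Itgam, which encodes CD11b, ranged over the same values in both gates, 64.2, 66.4, 85.9 and 86.4 CPM in monocytes and 72.1, 63.6, 87.8 and 82.8 CPM in pre-RPMs (log2 fold change 0.02 ± 0.13, adjusted p = 0.957). Adgre1, which encodes F4/80, the antigen that divides the gates, measured 10.6, 19.96, 41.6 and 39.3 CPM in monocyte replicates 1 to 4 and 65.98, 58.5, 76.5 and 87.1 CPM in pre-RPM replicates 1 to 4, with no overlap. It fell short of the call without the mouse number in the model (log2 fold change 1.37 ± 0.31, adjusted p = 0.0114) and was called with the mouse number as a block (log2 fold change 1.46 ± 0.21, adjusted p = 0.000589). Ly6g, the neutrophil antigen against which both gates select, measured 5.41, 6.93, 10.3 and 8.03 CPM in monocytes and 0.236, 0, 2.08 and 0.559 CPM in pre-RPMs and fell (log2 fold change -3.62 ± 0.55, adjusted p = 0.00112). All 17 classical monocyte genes found in the files were tested, and their summed level was 2412 to 6277 CPM in monocytes and 6027 to 7251 CPM in pre-RPMs against 32.2 to 72.2 CPM in RPMs of the same genotype. Classical monocyte transcripts were thus abundant in both gates and sparse in RPMs. The 18 nonclassical monocyte genes summed to 1589 to 2548 CPM in monocytes and 2324 to 2574 CPM in pre-RPMs. In RPMs of the same genotype they summed to 861 to 958 CPM.

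The monocyte libraries differed from each other in transcripts of other cell types. The summed level of the list of natural killer (NK) cell genes was 3068, 2274, 1026 and 1569 CPM in monocyte replicates 1 to 4, a ratio of 2.99 between the highest and the lowest, and 65.5, 129, 84.8 and 68.2 CPM in pre-RPM replicates 1 to 4. Classical monocyte genes ran in the reverse order over the same libraries, 2412, 4059, 6277 and 5183 CPM, and were at 7216, 6831, 7251 and 6027 CPM in pre-RPMs. T cell genes, many of which NK cells share, summed to 568, 414, 173 and 234 CPM in monocyte replicates 1 to 4, in the order of the NK cell genes. Fewer cells of a type and less RNA per cell cannot be told apart in these bulk libraries.

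**Figure D1:**
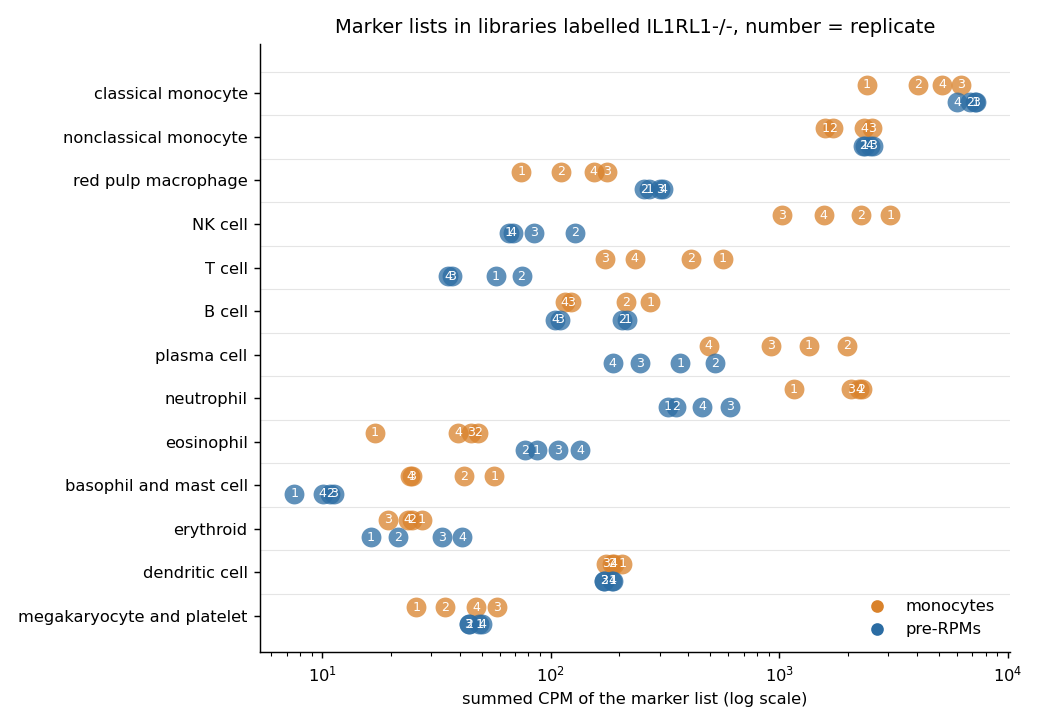
Summed CPM of the genes of each marker list (x axis, log scale) for the 4 monocyte libraries and the 4 pre-RPM libraries labelled IL1RL1-/-, each point 1 library with its replicate number. NK cell, T cell, neutrophil and basophil and mast cell sums are lower in every pre-RPM library than in every monocyte library, eosinophil and red pulp macrophage sums are higher, and the monocyte libraries are ordered 3, 4, 2, 1 from low to high by their NK cell sum.

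Of 11196 genes tested, 543 (4.85%) were called, 109 (0.974%) higher and 434 (3.88%) lower in pre-RPMs. The median log2 fold change over all genes was -0.00175. Falls were also the larger changes, since 262 called genes had a log2 fold change below -2 and 11 had one above 2. CPM of the 2 groups did not overlap for 540 of the 543 called genes, against 22.3% of all genes tested. A fit that paired libraries by mouse, with the number as a block, called 751 genes, of which 190 were higher. Its outcome is given below where the call of a named gene changes or the count of a list moves by more than 1.5 times. Calls of some list members that are not named changed as well. Leaving out monocyte replicate 3 raised the calls to 813, and leaving out monocyte replicate 2, pre-RPM replicate 1 or pre-RPM replicate 4 lowered them to 336, 358 and 342. The count of rises depended on single libraries: it was 259 without monocyte replicate 3, 149 without monocyte replicate 4, 61 and 33 without monocyte replicates 1 and 2, and 43, 53, 45 and 37 without pre-RPM replicates 1 to 4.

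**Figure D2:**
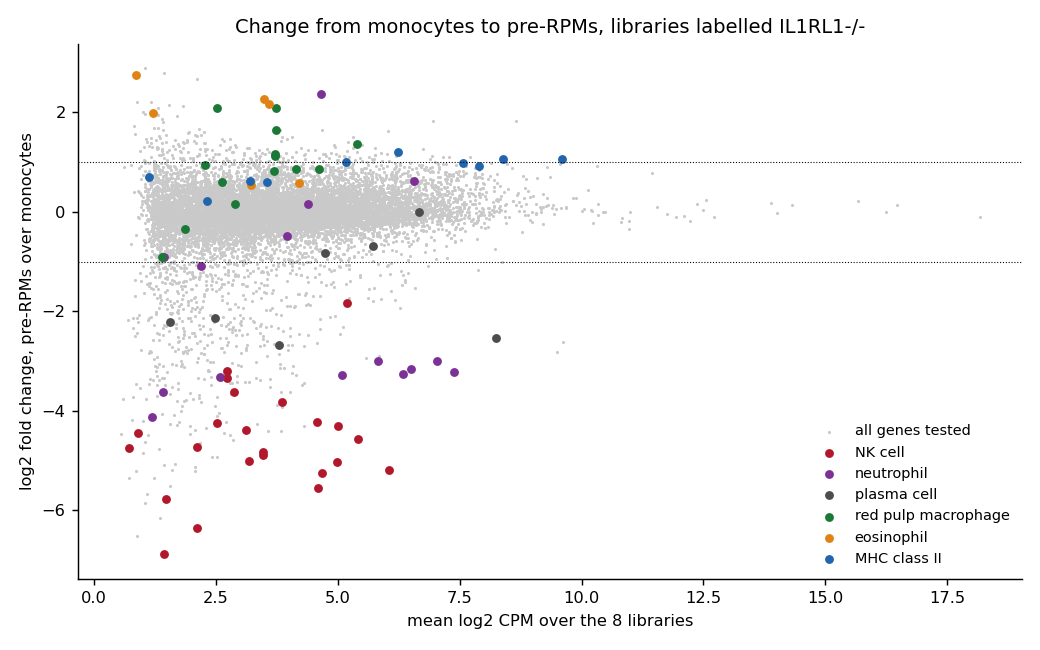
Log2 fold change of pre-RPMs over monocytes (y axis) against mean log2 CPM over the 8 libraries labelled IL1RL1-/- (x axis) for the 11196 genes tested, each point 1 gene, with 6 of the gene lists coloured and dotted lines at a log2 fold change of -1 and 1. All 23 NK cell genes lie below -1, and the 10 MHC class II genes lie above 0.

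The order of the monocyte libraries by their NK cell sum, 3, 4, 2 and 1 from low to high, recurred in genes called in either direction. Among the 434 genes called lower, monocyte replicate 1 was the highest monocyte library in 322 (74.2%) and replicate 3 the lowest in 293 (67.5%), where over all genes tested these shares were 29.2% and 26.8%. Among the 109 genes called higher, monocyte replicate 1 was the lowest in 79 (72.5%) and replicate 3 or 4 the highest in 51 (46.8%) and 43 (39.4%), where over all genes tested these shares were 31.4%, 26.6% and 22.6%. The NK cell, T cell and monocyte sums thus moved with the genes that fell and with the genes that rose, and their part in either was not tested.

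**Figure D3:**
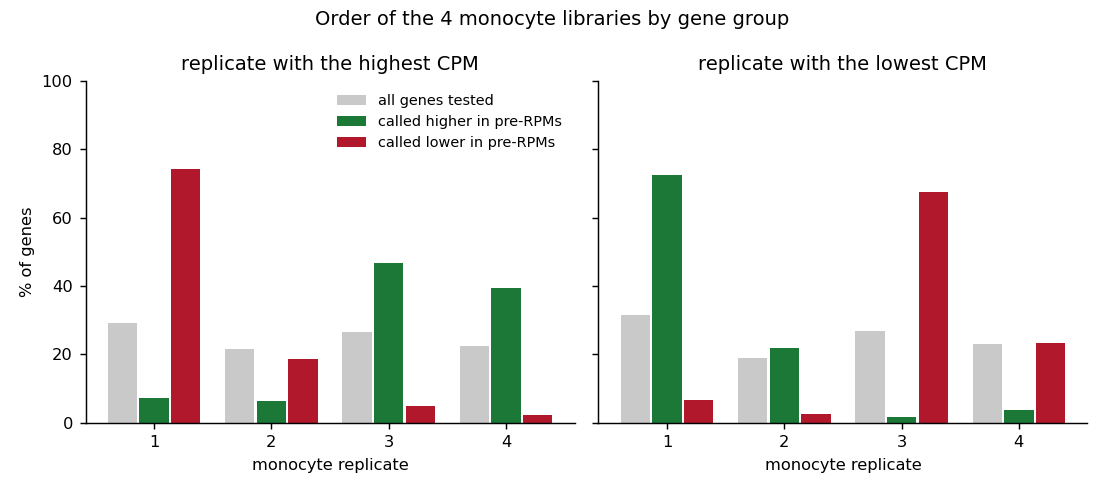
Share of genes (y axis, %) for which each of the 4 monocyte libraries labelled IL1RL1-/- (x axis) has the highest CPM (left) or the lowest CPM (right) of the 4, for all 11196 genes tested, the 109 called higher and the 434 called lower in pre-RPMs. Replicate 1 is the highest for 74.2% of the genes called lower and the lowest for 72.5% of the genes called higher.

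Genes of NK cells, cytotoxic innate lymphocytes, fell together. All 23 tested of the 24 NK cell genes listed were called lower, against 3.88% of all genes, with a median log2 fold change of -4.74, or -4.45 with the genes that stayed at or under 3 counts in every pre-RPM library set at their bound. The remaining gene, Xcl1, a chemokine, was too low to be tested. Prf1, the pore-forming perforin of cytotoxic granules (chromosome 10, 61297833 to 61304680), measured 283, 205, 90.4 and 132 CPM in monocyte replicates 1 to 4 and 1.89, 6.78, 4.17 and 1.68 CPM in pre-RPM replicates 1 to 4. The lowest monocyte library was thus above the highest pre-RPM library (log2 fold change -5.56 ± 0.45, adjusted p = 4.31e-05). Ncr1, the activating receptor NKp46, measured 275, 205, 88.5 and 125 CPM against 2.60, 8.82, 3.87 and 2.05 CPM (log2 fold change -5.25 ± 0.45, adjusted p = 4.61e-05). Gzma, a granule serine protease, measured 657, 522, 224 and 372 CPM against 6.39, 22.4, 13.4 and 5.41 CPM (log2 fold change -5.20 ± 0.45, adjusted p = 4.61e-05). In all 3 genes monocyte replicate 1 was the highest and monocyte replicate 3 the lowest of the monocyte libraries, and pre-RPM replicate 2 the highest of the pre-RPM libraries.

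The 12 largest falls, apart from those of Prf1, Ncr1 and Gem, were of genes not detectable above 3 counts in any pre-RPM library. For the fold of these genes only a lower bound is given, taken against a floor of 3 counts per library. Fasl, the death ligand of cytotoxic lymphocytes, measured 27.3, 13.7, 8.40 and 14.2 CPM in monocytes and 0, 0.339, 0 and 0 CPM in pre-RPMs, at least 23.8-fold lower (adjusted p = 7e-05). Klrb1c, the lectin-like receptor NKR-P1C, measured 50.4, 32.2, 12.3 and 20.2 CPM and 0.473, 0.339, 0.595 and 0 CPM, at least 43.1-fold lower (adjusted p = 8.23e-05). Klrg1, an inhibitory receptor of mature NK and T cells, measured 17.7, 15.1, 9.91 and 10.1 CPM and 0, 0.509, 0.298 and 0 CPM, at least 19.8-fold lower (adjusted p = 4.61e-05). The bound was at least 14.7-fold for Klra7, a Ly49 receptor, 20.1-fold for Serpinb9b, a serpin of the granzyme inhibitor family, 11.7-fold for Heatr9, 14.4-fold for the zinc finger factor Tshz3, 19.3-fold for the repressor Klf12 and 20.1-fold for Trdc, the constant region of the T cell receptor delta chain. The small GTP-binding protein Gem completed the 12 largest falls (log2 fold change -5.21 ± 0.51, adjusted p = 7.66e-05). All 12 were called whichever of the 8 libraries was left out. Genes of the Klr family lie in a cluster of close paralogs, so reads that fit several of them could be lost or divided. Of its 15 tested members 14 were called lower, against 3.88% of all genes, a family counted after its values were seen.

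The promoters of NK genes with the largest falls are shown because these genes fell together. They are windows of 300 bases from RefSeq (GRCm38.p6), 250 before and 50 after the start, on the gene's strand, with matches to the searched motifs in capitals: AGATAA for GATA factors, GGTGTGA for T-box factors, CCAAT, then TTTGAA of cell cycle promoters, and the interferon response motif GAAANNGAA, each on both strands.
Fasl, minus strand, chr1:161788446-161788745: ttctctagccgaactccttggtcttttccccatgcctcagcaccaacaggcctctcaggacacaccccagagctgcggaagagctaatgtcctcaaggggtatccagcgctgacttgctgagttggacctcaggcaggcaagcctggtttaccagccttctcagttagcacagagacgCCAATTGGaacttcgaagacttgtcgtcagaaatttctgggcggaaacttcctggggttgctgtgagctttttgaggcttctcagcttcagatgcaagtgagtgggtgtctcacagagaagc
Klrb1c, minus strand, chr6:128788592-128788891: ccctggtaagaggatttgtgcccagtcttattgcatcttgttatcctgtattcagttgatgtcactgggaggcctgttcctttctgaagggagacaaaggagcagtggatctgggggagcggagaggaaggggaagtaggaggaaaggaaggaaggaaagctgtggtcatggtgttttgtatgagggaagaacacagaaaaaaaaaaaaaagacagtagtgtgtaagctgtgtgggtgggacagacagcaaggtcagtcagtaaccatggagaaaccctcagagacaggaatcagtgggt
Prf1, plus strand, chr10:61297586-61297885: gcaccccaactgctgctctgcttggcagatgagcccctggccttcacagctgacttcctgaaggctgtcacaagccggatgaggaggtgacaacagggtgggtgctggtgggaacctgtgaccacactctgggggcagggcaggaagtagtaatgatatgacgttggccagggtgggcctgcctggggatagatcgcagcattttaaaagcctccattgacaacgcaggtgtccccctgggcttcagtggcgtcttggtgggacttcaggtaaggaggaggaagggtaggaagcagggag
The capitals in the Fasl window are 2 overlapping CCAAT matches on opposite strands, and the Klrb1c and Prf1 windows hold no match. Of the 23 NK genes called, 15 had a window in the reference, with 19 windows between them. Of these 15 genes, 1 held the T-box motif, 1 the GATA motif, 8 CCAAT, 3 TTTGAA and 3 the interferon response motif. The shares among all 32851 windows were 3.98%, 11.2%, 37.4%, 17.9% and 8.56%, counted per window and not per gene. A match describes letters and no binding.

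T cell genes fell in part. Of 26 listed, 21 were tested and 14 were called lower, against 3.88% of all genes, with none higher and a median log2 fold change of -3.08, while leaving out pre-RPM replicate 4 left 9 calls. Cd3e, a signalling chain of the T cell receptor, measured 6.89, 4.62, 2.80 and 1.85 CPM in monocytes and 4.49, 4.07, 2.68 and 2.80 CPM in pre-RPMs, overlapped and was not called (log2 fold change -0.17 ± 0.38, adjusted p = 0.824). Cd3d, Trbc2, Cd5, Cd8a and Themis were too low to be tested, at 5.90 CPM or less in every library. Lck, the proximal kinase of the T cell receptor, which NK cells also carry, measured 92.5, 67.7, 33.4 and 39.9 CPM in monocytes and 3.78, 5.94, 3.27 and 1.86 CPM in pre-RPMs (log2 fold change -3.93 ± 0.39, adjusted p = 8.23e-05). Cd2, an adhesion receptor of T and NK cells, measured 114, 85.5, 29.5 and 52.9 CPM and 8.28, 8.99, 5.36 and 2.24 CPM (log2 fold change -3.48 ± 0.44, adjusted p = 0.00034). Skap1 and Zap70, both signalling proteins downstream of antigen receptors, had log2 fold changes of -3.72 ± 0.46 (adjusted p = 0.000264) and -3.68 ± 0.47 (adjusted p = 0.000326). Bcl11b, a factor required for T cell commitment, measured 11.6, 5.88, 2.37 and 4.73 CPM and 4.26, 5.94, 2.68 and 2.42 CPM, overlapped and was not called (log2 fold change -0.62 ± 0.44, adjusted p = 0.377). The Gimap GTPases, enriched in lymphocytes and counted after their values were seen, were called lower in all 9 tested, against 3.88% of all genes, with log2 fold changes from -4.42 to -2.87.

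Transcription factors of lymphoid cells moved with these receptors and enzymes. Of 16 listed, 15 were tested, 10 were called lower, against 3.88% of all genes, and none higher, with 6 calls without pre-RPM replicate 1 and 5 without pre-RPM replicate 4. Tbx21, the T-box factor T-bet, measured 95.9, 69.3, 30.1 and 40.5 CPM in monocytes and 1.18, 2.71, 1.79 and 1.86 CPM in pre-RPMs (log2 fold change -4.89 ± 0.42, adjusted p = 4.61e-05). Eomes, its relative, measured 173, 117, 50.4 and 92.4 CPM and 5.20, 8.65, 6.55 and 2.61 CPM (log2 fold change -4.22 ± 0.40, adjusted p = 6.63e-05). The groups did not overlap for either factor. Gata3 (chromosome 2, 9857078 to 9890034), the GATA factor of T and innate lymphoid cells, measured 30.01, 16.2, 7.75 and 12.1 CPM and 0.473, 0.509, 1.79 and 0.559 CPM (log2 fold change -4.40 ± 0.53, adjusted p = 0.000251). Ets1 measured 249, 194, 91.1 and 131 CPM and 25.8, 30.4, 14.9 and 16.6 CPM (log2 fold change -2.90 ± 0.32, adjusted p = 0.000133). Both followed the order of the NK genes among the monocyte libraries, highest in replicate 1 and lowest in replicate 3. Lef1 and Tox, factors of developing lymphocytes, fell by 2.84 and 2.83 on the log2 scale (adjusted p = 0.00262 and 0.00387), and Lef1 lost its call without pre-RPM replicate 1, 3 or 4 and Tox without monocyte replicate 2 or pre-RPM replicate 1 or 4.

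Within the GATA and ETS factors as a list, 14 of 17 were tested, 4 were called lower and 1 higher, against 3.88% and 0.974% of all genes, and 2 were called higher without monocyte replicate 3 or 4. Gata2, the GATA factor of mast cells and basophils, measured 10.6, 9.67, 5.17 and 3.09 CPM in monocytes and 0.946, 1.53, 0.893 and 2.42 CPM in pre-RPMs and fell (log2 fold change -2.20 ± 0.45, adjusted p = 0.00636), with a call that stood only without monocyte replicate 3 or 4 among the fits on 7 libraries. Zfpm1, which encodes the GATA cofactor FOG1, fell as well (log2 fold change -2.67 ± 0.34, adjusted p = 0.00032). Gata1, the erythroid and eosinophil factor, was too low to be tested, with 0, 0.420, 0.431 and 0.206 CPM in monocytes and 0.946, 0.678, 2.68 and 1.30 CPM in pre-RPMs. Spi1, the ETS factor PU.1 of myeloid cells, measured 67.2, 83.4, 155 and 131 CPM and 185, 161, 193 and 174 CPM and was not called (log2 fold change 0.71 ± 0.21, adjusted p = 0.0393). Spic was the factor called higher.

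Genes of the neutrophil list formed another group of falls. Of 18 neutrophil genes listed, 15 were tested, 9 were called lower and 1 higher, against 3.88% and 0.974% of all genes, with a median log2 fold change of -3.00. Mpo, Mmp8, Mmp9, Csf3r and Cebpe were tested and not called, and Elane, Prtn3 and Ctsg were too low to be tested. S100a9, a subunit of calprotectin, measured 313, 744, 462 and 622 CPM in monocytes and 35.5, 47.7, 82.5 and 62.6 CPM in pre-RPMs (log2 fold change -3.23 ± 0.29, adjusted p = 5.11e-05). S100a8, its partner, measured 138, 357, 225 and 321 CPM and 17.5, 26.6, 35.4 and 28.9 CPM (log2 fold change -3.26 ± 0.29, adjusted p = 4.73e-05). Lcn2, the siderophore-binding lipocalin, measured 71.1, 115, 134 and 113 CPM and 5.91, 9.67, 20.5 and 9.69 CPM (log2 fold change -3.28 ± 0.29, adjusted p = 4.73e-05). In these 3 genes monocyte replicate 1 was the lowest of the monocyte libraries, where it was the highest for NK genes. Cxcr2, the chemokine receptor of neutrophils, was at least 10.5-fold lower (adjusted p = 0.000579) and Olfm4, a granule glycoprotein, fell (log2 fold change -3.31 ± 0.32, adjusted p = 6.86e-05). Retnlg, a resistin-like secreted protein also found in monocytes, went the other way with 2.46, 11.3, 12.3 and 25.7 CPM in monocytes and 48.7, 35.1, 72.04 and 115 CPM in pre-RPMs (log2 fold change 2.37 ± 0.47, adjusted p = 0.00599), and lost its call without monocyte replicate 2 or pre-RPM replicate 1, 3 or 4.

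Some transcripts of antibody-secreting cells were lower in pre-RPMs. Of 8 plasma cell genes listed, 7 were tested and 2 were called lower, against 3.88% of all genes, or 4 with the mouse block, and the count without 1 library ran from 0 (pre-RPM replicate 4) and 1 (monocyte replicate 2 or pre-RPM replicate 1 or 3) to 5 (monocyte replicate 4). Mzb1, a chaperone of antibody assembly, measured 41.3, 76.9, 32.3 and 16.1 CPM in monocytes and 8.04, 11.9, 3.27 and 1.68 CPM in pre-RPMs (log2 fold change -2.69 ± 0.53, adjusted p = 0.00521). Sdc1, the surface marker CD138, measured 12.1, 15.1, 12.7 and 4.94 CPM and 3.31, 2.71, 2.68 and 1.49 CPM (log2 fold change -2.14 ± 0.36, adjusted p = 0.00204). Jchain, which joins IgA and IgM polymers, measured 1069.6, 1614, 658 and 309 CPM in monocytes and 179, 324, 86.6 and 38.8 CPM in pre-RPMs, so that the gates overlapped while every mouse had less in its pre-RPMs, and was called with the block (log2 fold change -2.68 ± 0.12, adjusted p = 3.03e-07). Immunoglobulin gene segments and constant regions, counted after their values were seen, were called lower in 35 of 97 tested, against 3.88% of all genes, and higher in none. Their similar sequences leave the share of each segment uncertain. None of 13 tested B cell genes was called by edgeR or DESeq2 on all 8 libraries, 1 was called lower without monocyte replicate 4, and 2 had an unadjusted p under 0.05, as had 30.6% of all genes (median log2 fold change -0.32). Ighm measured 144, 88.3, 66.5 and 57.8 CPM and 136, 108, 61.3 and 49.03 CPM, without a difference between gates that passed the test (log2 fold change -0.00 ± 0.33, adjusted p = 0.997). Plasma cell genes were highest in mouse 2 in both gates, with summed levels of 1346, 1980.1, 923 and 491 CPM in monocyte replicates 1 to 4 and 369, 524, 246 and 187 CPM in pre-RPM replicates 1 to 4.

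Some genes of the RPM program rose, to a low level. Of 22 listed, 14 were tested, 4 were called higher against 0.974% of all genes, none was called lower, and the median log2 fold change was 0.90. The count was 6 with the mouse block, which added Adgre1 and Fcgr1, 2 without monocyte replicate 2 or pre-RPM replicate 3 or 4, and 7 without monocyte replicate 3. Spic (chromosome 10, 88674772 to 88685015), the factor on which RPMs depend, measured 1.72, 2.52, 3.23 and 2.68 CPM in monocytes and 8.99, 11.7, 11.6 and 11.4 CPM in pre-RPMs and rose (log2 fold change 2.09 ± 0.22, adjusted p = 0.000101). In RPMs labelled IL1RL1-/- it stood at 377 ± 38.3 CPM (SD, n = 4). Axl (chromosome 7, 25757273 to 25788705), a receptor for apoptotic cells, measured 3.44, 4.20, 8.40 and 9.47 CPM and 28.4, 22.05, 28.3 and 31.3 CPM (log2 fold change 2.09 ± 0.26, adjusted p = 0.00027), against 1703 ± 65.8 CPM in RPMs (SD, n = 4). Both genes kept the call whichever library was left out, and in both the pre-RPM libraries lay closer to monocytes than to RPMs. Siglec1, the sialoadhesin CD169, measured 3.69, 5.88, 11.6 and 9.26 CPM and 18.7, 17.3, 32.4 and 28.9 CPM (log2 fold change 1.65 ± 0.30, adjusted p = 0.00359), and was not called without monocyte replicate 2 or pre-RPM replicate 3 or 4. Hmox1, the inducible heme oxygenase, measured 6.15, 7.35, 13.8 and 7.82 CPM and 18.7, 20.7, 20.2 and 16.8 CPM (log2 fold change 1.12 ± 0.22, adjusted p = 0.00521), against 1321 ± 131 CPM in RPMs (SD, n = 4), and kept its call only without monocyte replicate 3 among the fits on 7 libraries.

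Other genes of mature RPMs were far below their RPM level in both gates. Cd5l, a secreted scavenger protein, was 0 in all monocyte libraries and 0.186 CPM in the highest pre-RPM library, where 1 count gives that value. Mertk, a receptor for apoptotic cells, reached 0.492 CPM at most in monocytes and 1.30 CPM in pre-RPMs, against 531 ± 29.1 CPM in RPMs (SD, n = 4). Vcam1, an adhesion molecule of RPMs, measured 0.984, 1.26, 0.215 and 1.03 CPM and 1.66, 3.05, 3.27 and 2.80 CPM, against 1776 ± 83.7 CPM in RPMs (SD, n = 4), and was too low to be tested, although every pre-RPM library was above every monocyte library. Slc40a1, the iron exporter ferroportin, measured 2.21, 8.83, 9.26 and 8.03 CPM and 6.39, 6.27, 8.93 and 10.4 CPM and was not called (log2 fold change 0.16 ± 0.34, adjusted p = 0.805), against 2116 ± 157 CPM in RPMs (SD, n = 4). Of 20 tested genes of iron and heme handling 2 were called higher, against 0.974% of all genes, Hmox1 and Slc11a1, the phagosomal metal transporter NRAMP1, with 12.3, 20.4, 34.03 and 32.9 CPM in monocytes and 54.2, 54.1, 50.9 and 55.9 CPM in pre-RPMs (log2 fold change 1.11 ± 0.23, adjusted p = 0.00762). Slc11a1 kept its call without monocyte replicate 3 or 4 and lost it in the other 6 fits on 7 libraries, where the list held 2 calls without monocyte replicate 3, 1 without monocyte replicate 4 and 0 without each of the rest. Bach1, a heme-sensitive repressor, measured 57.6, 82.6, 116 and 109 CPM and 156, 157, 168 and 158 CPM, a difference that stayed under the fold threshold (log2 fold change 0.81 ± 0.18, adjusted p = 0.00882).

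Among engulfment receptors and bridging ligands 12 of 18 were tested and 2 were called higher, against 0.974% of all genes, or 5 with the mouse block, 6 without monocyte replicate 3 and 1 without monocyte replicate 2 or pre-RPM replicate 3 or 4. Besides Axl the second was Itgb5, an integrin subunit that binds apoptotic cells through bridging proteins, with 15.5, 18.3, 36.4 and 27.2 CPM in monocytes and 52.7, 56.98, 59.2 and 59.5 CPM in pre-RPMs (log2 fold change 1.23 ± 0.21, adjusted p = 0.00217), which was the call lost. With the block Msr1, Lrp1 and Sirpa were added at log2 fold changes of 1.13, 1.06 and 1.09 (adjusted p = 0.00841, 0.0017 and 0.00173). Fcgr2b, the inhibitory Fc receptor, measured 34.7, 39.1, 48.5 and 49.4 CPM and 95.1, 92.3, 91.1 and 106 CPM (log2 fold change 1.17 ± 0.12, adjusted p = 0.000105). It was the sole one of 12 tested complement and Fc receptor genes that was called, against 0.974% of all genes called higher, or 1 of 3 with the block and 1 of 2 without monocyte replicate 3. Of 20 tested myeloid transcription factors 2 were called higher, among them Spic, and 1 lower, Nr4a3, against 0.974% and 3.88% of all genes, and 1 was higher without monocyte replicate 1. Maf, a factor of macrophage maturation, measured 10.6, 12.6, 12.3 and 15.8 CPM and 22.2, 18.8, 24.4 and 27.6 CPM, without overlap and under the fold threshold (log2 fold change 0.85 ± 0.16, adjusted p = 0.0044).

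The remaining large rises were of genes with few reads, none above 11.9 CPM in a pre-RPM library. Spon1, an extracellular matrix protein, measured 0.492, 0.420, 1.08 and 0.206 CPM in monocytes and 4.73, 3.39, 5.06 and 3.91 CPM in pre-RPMs, the rise with the highest log2 fold change (log2 fold change 2.89 ± 0.40, adjusted p = 0.000592). In monocyte replicates 1, 2 and 4 Spon1 lay under the floor of 3 counts, so the size of its rise is uncertain. Mylk, the myosin light chain kinase, measured 0.738, 1.47, 1.72 and 2.06 CPM and 10.4, 6.27, 11.9 and 10.999 CPM (log2 fold change 2.67 ± 0.31, adjusted p = 0.000203). Neither stood high in RPMs, at 0.327 ± 0.277 CPM and 0.943 ± 0.434 CPM (SD, n = 4). Reps2, an endocytic adaptor, had a log2 fold change of 2.79 ± 0.50 (adjusted p = 0.00324) and lost its call without pre-RPM replicate 1, 3 or 4. Adgrl3, an adhesion G protein-coupled receptor, Ccl24, the chemokine eotaxin-2, and Hap1, a vesicle transport protein, rose by log2 fold changes of 2.13 ± 0.29, 2.08 ± 0.38 and 1.92 ± 0.36 (adjusted p = 0.000592, 0.00366 and 0.00382). Ccl24 lost its call without monocyte replicate 2 or pre-RPM replicate 1, 2 or 4, and Hap1 without monocyte replicate 2 or pre-RPM replicate 2 or 4. These 3 genes stood in RPMs at 40.3 ± 7.003, 58.03 ± 3.33 and 73.6 ± 7.53 CPM (SD, n = 4). Tnfsf13os, an antisense transcript of the APRIL locus read with strand by the counting, rose as well (log2 fold change 1.97 ± 0.31, adjusted p = 0.0015).

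**Figure D4:**
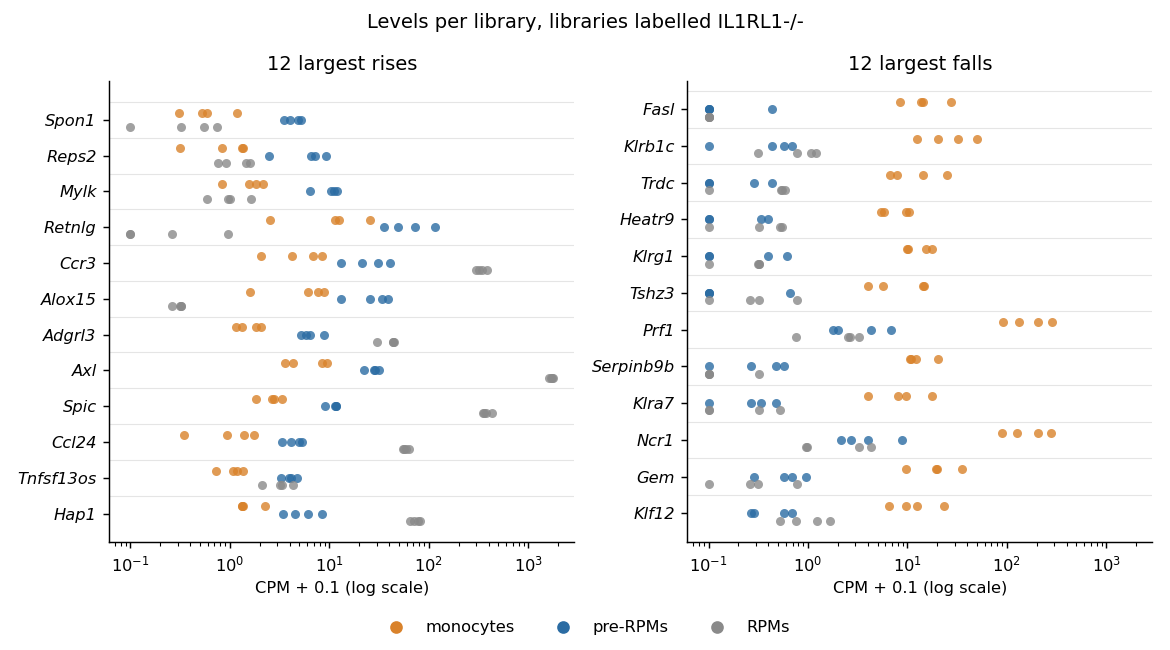
CPM plus 0.1 (x axis, log scale) of the 12 genes with the largest rises (left) and the 12 with the largest falls (right) in libraries labelled IL1RL1-/-, each point 1 library of monocytes, pre-RPMs or RPMs. Monocyte and pre-RPM points do not overlap for any of the 24 genes, and RPM points lie above those of pre-RPMs for Ccr3, Adgrl3, Axl, Spic, Ccl24 and Hap1.

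A pair of genes associated with eosinophils rose. Of 10 listed, 6 were tested and 2 were called higher, against 0.974% of all genes, or 4 with the mouse block, 1 without pre-RPM replicate 1 and none without pre-RPM replicate 3 or 4, with a median log2 fold change of 2.08. Ccr3, the eotaxin receptor, measured 1.97, 8.41, 4.09 and 6.79 CPM in monocytes and 21.3, 12.9, 30.7 and 40.5 CPM in pre-RPMs (log2 fold change 2.28 ± 0.40, adjusted p = 0.00263), and RPMs carried it at 337 ± 36.2 CPM (SD, n = 4). Alox15, a lipoxygenase of eosinophils and of some macrophages, measured 1.48, 8.83, 6.03 and 7.61 CPM and 25.3, 13.1, 33.6 and 38.6 CPM (log2 fold change 2.17 ± 0.40, adjusted p = 0.00365), and RPMs were at 0.205 ± 0.0281 CPM (SD, n = 4). Pre-RPM replicate 2 was the lowest and replicate 4 the highest pre-RPM library for both genes. Of the granule genes that define eosinophils, Epx, the eosinophil peroxidase, and Prg3 were too low to be tested, with at most 1.36 CPM of either in any of the 8 libraries. Ear1 and Ear6 were also too low to be tested, while Prg2 and Ear2 of the same list were tested and not called with or without the block. All 6 tested genes of the list had a positive log2 fold change, 5 with an unadjusted p under 0.05, against 30.6% of all genes. DESeq2 called 5 genes of the list higher. With the block Siglecf and Il5ra were also called, at log2 fold changes of 2.02 and 2.79 (adjusted p = 0.0047 and 0.00119), from levels under 2 CPM in every monocyte library. The summed level of the list was 16.97 to 48.1 CPM in monocytes and 77.3 to 135 CPM in pre-RPMs. Without Ccr3 and Alox15 the other 8 genes summed to 13.5, 30.9, 34.9 and 25.1 CPM in monocyte replicates 1 to 4 and 40.4, 51.4, 43.2 and 55.9 CPM in pre-RPM replicates 1 to 4, and their part in the rises of that pair was not tested. Of the basophil and mast cell genes 3 of 12 were tested and 2 were called lower, against 3.88% of all genes. These were Gata2 and Hdc, the enzyme that makes histamine (Hdc, log2 fold change -2.28 ± 0.34, adjusted p = 0.000967), while 3 were called without monocyte replicate 3 and 1 without monocyte replicate 1 or 2 or any pre-RPM library. Erythroid, dendritic cell and megakaryocyte genes held no gene called by edgeR among 4, 10 and 3 tested, of which 4, 4 and 0 had an unadjusted p under 0.05, against 30.6% of all genes, and DESeq2 called 1, 0 and 0. Of the erythroid genes edgeR called 1 lower without monocyte replicate 3 or at an adjusted p under 0.05, and 2 higher and 1 lower with every gene that had a count.

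Genes of MHC class II, which presents antigen to helper T cells, stood higher in pre-RPMs. Of 10 listed, all were tested and 4 were called higher against 0.974% of all genes, none was called lower, and the median log2 fold change was 0.96. Cd74, the invariant chain, measured 627, 417, 601 and 526 CPM in monocytes and 1169, 1121, 1127 and 1090.0 CPM in pre-RPMs (log2 fold change 1.06 ± 0.13, adjusted p = 0.000334). H2-Ab1 (chromosome 17, 34263209 to 34269418), a class II beta chain, measured 301, 181, 231 and 225 CPM and 517, 529, 458 and 456 CPM (log2 fold change 1.07 ± 0.15, adjusted p = 0.000592). Every pre-RPM library was above every monocyte library for both, and monocyte replicate 2 was the lowest. Ciita, the transactivator of class II genes, measured 63.96, 34.3, 49.1 and 51.2 CPM and 118, 118, 111 and 111 CPM (log2 fold change 1.21 ± 0.15, adjusted p = 0.00034), and H2-DMa, a peptide loading chaperone, was called at the threshold (log2 fold change 1.00 ± 0.15, adjusted p = 0.0012) and lost its call without monocyte replicate 1, 2 or 4 or pre-RPM replicate 3. H2-Eb1 missed the fold threshold (log2 fold change 0.99 ± 0.14, adjusted p = 0.000592) and passed it with the block (log2 fold change 1.00 ± 0.10, adjusted p = 4.23e-05). Their summed level was 1441, 912, 1230.1 and 1151 CPM in monocyte replicates 1 to 4 and 2543, 2459, 2316 and 2328 CPM in pre-RPM replicates 1 to 4. The monocyte libraries stood in another order than for NK cell genes. Without monocyte replicate 2 the list held 1 call, that of Ciita.

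The monocyte genes among the 543 calls fell, while most genes of both monocyte lists had a positive log2 fold change. It was positive for 14 of 17 classical and 16 of 18 nonclassical genes tested, with medians of 0.54 and 0.42. Of 17 classical monocyte genes tested, none was called higher and 2 lower, against 0.974% and 3.88% of all genes, or 2 and 2 with the mouse block, and 3 were called higher without monocyte replicate 3 and 1 without monocyte replicate 4. DESeq2 called 1 higher and 2 lower. Chil3, a chitinase-like secreted protein, measured 33.7, 48.3, 55.6 and 57.6 CPM in monocytes and 26.5, 17.8, 22.3 and 24.05 CPM in pre-RPMs (log2 fold change -1.11 ± 0.17, adjusted p = 0.00131). Chil3 kept its call whichever library was left out, and the median log2 fold change of its list was 0.54. Of 18 nonclassical monocyte genes 1 was called lower, against 3.88% of all genes. It was Spn, the sialomucin CD43, which fell from 576, 469, 400.1 and 448 CPM to 222, 235, 245 and 231 CPM (log2 fold change -1.02 ± 0.12, adjusted p = 0.000251). Among the monocyte libraries Spn followed the order of the NK cell genes, highest in replicate 1 and lowest in replicate 3. The part of other cells in its fall was not tested. Spn lost its call without monocyte replicate 1 or pre-RPM replicate 1 and was joined by 1 gene called higher with the block or without monocyte replicate 3. Cx3cr1, the fractalkine receptor of nonclassical monocytes, measured 52.4, 68.7, 129.9 and 105 CPM and 162, 156, 172 and 145 CPM and was not called (log2 fold change 0.84 ± 0.22, adjusted p = 0.0222).

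Calls of interferon-stimulated genes depended on the pairing by mouse, the filter, the threshold and single libraries. Of 24 tested, edgeR called none without the block, although 19 had an unadjusted p under 0.05, against 30.6% of all genes, and the median log2 fold change was 0.86, and 8 were called higher with it. Without the block edgeR called 8 with every gene that had a count kept, 6 at an adjusted p under 0.05, 5 without monocyte replicate 3 and 2 without monocyte replicate 4, and DESeq2 called 1. Over all genes, 190 were called higher with the block and 208 with every gene that had a count. There were 206 at an adjusted p under 0.05, 259 and 149 without monocyte replicates 3 and 4, and 144 with DESeq2. The 8 called with the block were Ifit1, Ifit3, Oas2, Oasl2, Mx1, Rsad2, Usp18 and Ifi44, all genes of the antiviral response. Mx1, an antiviral GTPase, measured 11.8, 11.6, 27.4 and 25.1 CPM in monocyte replicates 1 to 4 and 35.5, 36.3, 46.1 and 46.98 CPM in pre-RPM replicates 1 to 4, with a log2 fold change of 1.18 ± 0.16, adjusted p = 0.0004 with the block and an adjusted p of 0.0111 without it. Oasl2, of the oligoadenylate synthetase family, measured 2.46, 7.56, 19.6 and 11.5 CPM and 25.8, 19.5, 40.5 and 30.01 CPM (log2 fold change 1.56 ± 0.25, adjusted p = 0.00126 with the block, adjusted p = 0.0261 without it). Mice 3 and 4 were higher than mice 1 and 2 in both gates for Mx1. Replicates 1 and 2 of the monocytes are also those with the higher NK cell sums, and the part of these in the rise was not tested. Irf7 measured 40.3, 38.2, 74.1 and 66.9 CPM and 85.8, 75.98, 130.1 and 111 CPM and was not called (log2 fold change 0.88 ± 0.22, adjusted p = 0.0205).

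Some genes of DNA replication and mitosis fell in pre-RPMs. Of 42 cell cycle genes listed, 25 were tested, 7 were called lower, against 3.88% of all genes, none higher, and the median log2 fold change was -0.81. Mcm6 (chromosome 1, 128331590 to 128359664), a subunit of the replicative helicase, measured 22.4, 15.1, 11.4 and 13.6 CPM in monocytes and 3.55, 3.05, 3.57 and 1.68 CPM in pre-RPMs (log2 fold change -2.41 ± 0.28, adjusted p = 0.000207). Mcm2, of the same helicase, measured 15.5, 16.4, 12.3 and 11.7 CPM and 4.49, 4.58, 5.66 and 5.22 CPM (log2 fold change -1.48 ± 0.18, adjusted p = 0.000298). Mki67, the proliferation antigen, measured 30.01, 35.1, 33.6 and 19.96 CPM and 8.99, 11.4, 21.4 and 8.58 CPM (log2 fold change -1.27 ± 0.27, adjusted p = 0.00811), and pre-RPM replicate 3 overlapped the monocytes. Kif11, a spindle motor, and Rrm2, a ribonucleotide reductase subunit, had log2 fold changes of -1.90 ± 0.40 (adjusted p = 0.00786) and -1.44 ± 0.29 (adjusted p = 0.00608). Ccna2, the S phase cyclin, was called without the block (log2 fold change -1.43 ± 0.31, adjusted p = 0.00881) and not with it (log2 fold change -1.45 ± 0.34, adjusted p = 0.0102). The list held 2 calls without pre-RPM replicate 1 or 4 and 3 without monocyte replicate 2 or pre-RPM replicate 2 or 3, and Mcm6 and Mcm2 kept theirs whichever library was left out. The part of the lymphoid and plasma cell transcripts that fell beside these genes was not tested.

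The promoters of the cell cycle genes with the largest falls are also shown, chosen from the lists searched after their shared motif was seen. Capitals mark CCAAT and TTTGAA on either strand.
Mcm6, minus strand, chr1:128359656-128359955: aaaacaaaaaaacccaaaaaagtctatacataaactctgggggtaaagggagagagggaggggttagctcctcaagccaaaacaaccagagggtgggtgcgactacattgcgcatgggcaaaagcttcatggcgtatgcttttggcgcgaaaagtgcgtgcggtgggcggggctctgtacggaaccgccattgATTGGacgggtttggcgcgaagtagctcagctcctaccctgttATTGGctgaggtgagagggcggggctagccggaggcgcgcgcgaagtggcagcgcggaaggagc
Kif11, plus strand, chr19:37376132-37376431: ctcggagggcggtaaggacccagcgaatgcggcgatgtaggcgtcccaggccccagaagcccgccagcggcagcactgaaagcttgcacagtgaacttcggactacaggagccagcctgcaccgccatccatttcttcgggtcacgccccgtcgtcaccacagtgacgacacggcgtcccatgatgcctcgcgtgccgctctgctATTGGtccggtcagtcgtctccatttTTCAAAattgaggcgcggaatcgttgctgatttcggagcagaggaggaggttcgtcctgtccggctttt
Mcm2, minus strand, chr6:88898731-88899030: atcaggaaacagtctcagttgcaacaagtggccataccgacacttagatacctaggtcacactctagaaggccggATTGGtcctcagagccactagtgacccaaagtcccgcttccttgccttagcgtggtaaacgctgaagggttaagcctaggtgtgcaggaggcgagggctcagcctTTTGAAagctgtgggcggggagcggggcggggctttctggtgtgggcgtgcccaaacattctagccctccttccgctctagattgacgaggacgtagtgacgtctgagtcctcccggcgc
Of the 7 genes called, 5 had a window in the reference, and all 5 held CCAAT, against 37.4% of all windows, while 3 held TTTGAA, against 17.9%. In the other lists searched, whose windows are not shown, CCAAT was held by 1 of 8 T cell, 5 of 9 neutrophil and 4 of 7 lymphoid transcription factor genes called lower. These genes had 15, 10 and 11 windows. No motif was tested for enrichment. In the Mcm6 window CCAAT occurs at 2 places, and in the Kif11 and Mcm2 windows each motif occurs once.

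In the list of the IL-33 receptor pathway the falls were of another receptor. Of 22 genes listed, 19 were tested, none was called higher and 2 were called lower, against 3.88% of all genes, Il18r1 and Il18rap, the subunits of the IL-18 receptor that NK cells carry. Il18rap measured 186, 188, 82.9 and 131 CPM in monocytes and 3.55, 9.84, 8.04 and 7.64 CPM in pre-RPMs (log2 fold change -4.31 ± 0.31, adjusted p = 4.31e-05), and Il18r1 fell by 4.42 on the log2 scale (adjusted p = 8.57e-05). The summed level of the list was 942 to 973 CPM in monocytes and 889 to 919.6 CPM in pre-RPMs. Of 20 tested immediate early genes 3 were called lower, against 3.88% of all genes. Nr4a3, an orphan nuclear receptor, measured 12.8, 8.62, 13.4 and 8.85 CPM and 0.709, 1.70, 2.08 and 1.12 CPM (log2 fold change -2.95 ± 0.30, adjusted p = 0.0001), while its relative Nr4a1 measured 60.3, 67.7, 120.0 and 95.9 CPM and 150.4, 133, 121 and 112 CPM and was not called (log2 fold change 0.59 ± 0.19, adjusted p = 0.0524). Egr3 and Myc fell by 2.34 and 1.95 on the log2 scale (adjusted p = 0.000334 and 0.00263), and Myc lost its call without pre-RPM replicate 1, 2 or 4.

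Single chemokine receptor and integrin genes were called. Of 12 chemokine receptor genes tested, Ccr3 was called higher and 3 were called lower, among them Cxcr2 and S1pr5, against 0.974% and 3.88% of all genes, and none was higher without pre-RPM replicate 3 or 4 and 2 without monocyte replicate 3. S1pr5, a sphingosine phosphate receptor of NK cells and nonclassical monocytes, measured 80.9, 64.3, 44.8 and 56.4 CPM in monocytes and 21.5, 24.4, 25.3 and 22.9 CPM in pre-RPMs (log2 fold change -1.38 ± 0.17, adjusted p = 0.000251). Ccr2, the receptor by which monocytes leave the bone marrow, measured 241, 342, 489 and 435 CPM and 595, 643, 587 and 557 CPM, without overlap and without a call (log2 fold change 0.67 ± 0.18, adjusted p = 0.0252). Of 17 integrin genes tested, 1 was called higher, Itgb5, and 1 lower, Itga2, against 0.974% and 3.88% of all genes. Itga2, the CD49b subunit of NK cells and platelets, measured 72.1, 61.4, 27.8 and 41.6 CPM and 4.02, 3.56, 4.47 and 2.80 CPM (log2 fold change -3.79 ± 0.31, adjusted p = 4.61e-05). No integrin was called higher without monocyte replicate 2 or pre-RPM replicate 3 or 4, and 2 were lower with the block or without monocyte replicate 3.

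The same step in wild-type mice gave 396 calls among 11091 genes tested (3.57%), 35 higher and 361 lower. Leaving out 1 wild-type library gave 1041 calls without monocyte replicate 3, 249 without monocyte replicate 1, and 188, 241, 261 and 169 without pre-RPM replicates 1 to 4. The 2 genotypes shared 294 calls, 54.1% of those in the libraries labelled IL1RL1-/- and 74.2% of those in wild type, and all 294 had the same direction. Of the 543 calls, 524 were tested in wild type and 521 had the same sign there. Whether the change differed between genotypes was tested as an interaction over the 16 libraries, and none of 11960 genes (0%) passed an adjusted p of 0.05 with edgeR, nor with DESeq2, while 454 genes (3.796%) had an unadjusted p under 0.05. With every gene that had a count kept, 78 genes passed with edgeR. Of the changes set out above, the NK cell list had a median log2 fold change of -4.74 beside -3.52 in wild type, the neutrophil list -3.00 beside -2.83 and the RPM list 0.90 beside 0.98. The plasma cell list had -2.14 beside -1.11. The basophil and mast cell list, which holds Gata2, had -2.20 beside -0.93 over 3 tested genes, with none called in wild type. No list was tested for a difference between genotypes. Pre-RPMs labelled IL1RL1-/- had an NK cell sum of 65.5 to 129 CPM, and wild-type pre-RPMs one of 175 to 295 CPM.

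The genes called in libraries labelled IL1RL1-/- with the smallest unadjusted interaction p were Adgrl3, H2-Ab1, Cd74, H2-Ea-ps and Tent5c. Adgrl3 (chromosome 5, 81020138 to 81825133) measured 1.97, 1.05, 1.72 and 1.23 CPM in monocytes and 5.68, 6.27, 5.06 and 8.76 CPM in pre-RPMs labelled IL1RL1-/-, and 2.43 ± 0.869 CPM and 2.17 ± 1.17 CPM in wild type (SD, n = 4). Its change differed between genotypes by a log2 value of 2.30 ± 0.53, unadjusted p = 0.000393. H2-Ab1 measured 345 ± 80.1 CPM in wild-type monocytes and 382 ± 65.6 CPM in wild-type pre-RPMs (SD, n = 4), where its log2 fold change was 0.14, and the difference between genotypes was 0.92 ± 0.25, unadjusted p = 0.00159. For Cd74 the difference was 0.84 ± 0.23, unadjusted p = 0.00222. All 10 MHC class II genes had a higher log2 fold change in the libraries labelled IL1RL1-/- than in wild type, with medians of 0.96 and 0.18 and no gene called in wild type. B cells also carry MHC class II, and the summed level of the B cell list was 154 to 606 CPM in wild-type monocytes, 236 to 300.1 CPM in wild-type pre-RPMs, 115 to 273 CPM in monocytes and 105 to 216 CPM in pre-RPMs labelled IL1RL1-/-, and its part in the class II levels was not tested. H2-Ea-ps, a class II pseudogene, had a difference of 0.88 ± 0.25, unadjusted p = 0.00254. Tent5c, a poly(A) polymerase abundant in plasma cells, measured 30.7, 41.2, 31.4 and 13.99 CPM in monocytes and 5.91, 6.78, 9.53 and 5.78 CPM in pre-RPMs, and its change differed by -2.13 ± 0.62, unadjusted p = 0.00281. None of the 5 passed adjustment over all genes tested (adjusted p = 1 for each), so a difference between genotypes was not shown.

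**Figure D5:**
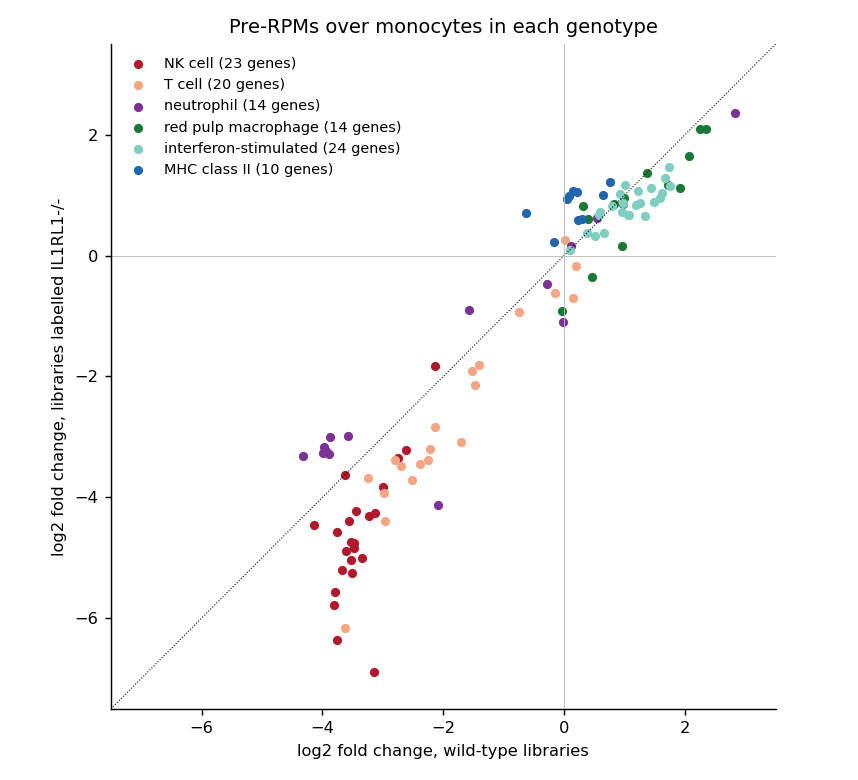
Log2 fold change of pre-RPMs over monocytes in libraries labelled IL1RL1-/- (y axis) against that in wild-type libraries (x axis), each point 1 gene of 6 lists, with a dotted line of equal change. The 10 MHC class II genes all lie above the line, and 21 of 23 NK cell genes lie below it.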

How the data were processed

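The deposited files hold whole-number counts per gene, which the authors made with featureCounts 1.6.2 (paired reads, reverse-stranded, exons grouped by gene name, Ensembl GRCm38 annotation release 95, per the file headers). By default that tool leaves out reads aligned to several places, which lowers the counts of near-identical genes. The submitters' processing notes name cutadapt 2.8 and STAR 2.5.1, and the study's methods a stranded total RNA kit. Counts of 54735 genes were joined, genes were filtered with filterByExpr, scaled by TMM and tested with edgeR 4.0.16 (R 4.3.3), 4 libraries against 4. Every pair of libraries within a gate differed beyond sampling noise (chi-square over degrees of freedom of 4.25 or more). At 3562367 to 5216045 counts in a library, 3 counts were taken as the floor under which a gene was not told from 0, which covers counting error only.

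The labels number the mice in each cell type. Deviations from the gate means correlated between libraries of the same number (r = 0.144, 0.286, 0.207 and 0.365 over 11196 genes), so the number was taken to pair the samples, and a fit with it as a block was run beside the unpaired one. On simulated counts for this comparison with 200 of 11196 genes changed 3-fold, 4-fold and 8-fold, 165, 188 and 195 were recovered, with 0, 3 and 2 false calls. These counts were drawn independently for each gene and library, with as many rises as falls. They held no pairing by mouse and no shared shift of cell types between libraries, so the false calls do not cover either. Alternatives were DESeq2 1.42.0, RLE factors, other count filters, glmTreat, all 24 libraries in 1 fit, Gm42418 left out and each library left out. Genes named are the sorting and pathway genes given first, the 12 largest rises and falls with non-overlapping groups and a mean log2 CPM of at least 1 (31 of 520 such genes had predicted symbols and are counted only), up to 6 called members per list and direction, and the 5 smallest interaction p-values. Uncalled list members and genes called only with the block were named after their values were seen. The gene lists, like the comparison itself, were chosen with earlier results of these data known. Some called list members are counted but not reported here. Coordinates are those of the files.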

Additional observations from a re-analysis of the deposited data

Results flagged for a closer look

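In 126 sets of 4 libraries examined, 6 values stood apart from the other 3 of their gate by more than Dixon's 95% critical value, where chance gives about 1 in 20. Gata3 in pre-RPM replicate 3 was 1.79 CPM, above the others, and the fall of Gata3 was called whichever library was left out. Spic in pre-RPM replicate 1 was 8.99 CPM, below the others and still above every monocyte library. Hap1 in monocyte replicate 3 was 2.15 CPM, and Serpinb9b in monocyte replicate 1 was 20.4 CPM, each above the rest of its gate. Fasl in pre-RPM replicate 2 was 0.339 CPM and Tshz3 in pre-RPM replicate 4 was 0.559 CPM, where the other 3 libraries held no count, and both values lie at or under 3 counts.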

How the results depend on the processing

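Of 75 named genes called, none changed sign under any alternative that gave it a value, and 39 were called under every one. The 543 calls (109 higher, 434 lower) became 1060 (208 and 852) with every gene that had a count, 264 (191 lower) with at least 10 counts in every library, and 178 (5 and 173) with glmTreat at a log2 fold change of 1, which tests fewer or more genes or a stricter null by construction. An adjusted p under 0.05 gave 206 rises. DESeq2 gave 740 calls, all 24 libraries in 1 fit 721, RLE factors 538 and the fit without Gm42418 535. With the mouse number as a replicate block there were 751 calls and 190 rises, against 90 rises in wild type with the block and 35 without, and apart from the calls given above the block changed no named call. Leaving out 1 library gave 336 to 813 calls, 33 to 259 rises and 303 to 554 falls. In wild type it gave 169 to 1041 calls, 7 to 405 rises and 160 to 636 falls, the highest without monocyte replicate 3. The interaction passed in 0 genes with the block, with DESeq2 and in all 16 fits that left out 1 library, and in 78 with every gene that had a count, and the cause was not tested. At this depth genes under about 1 CPM cannot be compared.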

Other observations

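Gene families grouped by symbol after their values were seen held further calls. Over all genes tested, 0.974% were called higher and 3.88% lower. Of 40 tested genes of the Hist1 cluster, which encodes replication-dependent histones, 6 were called lower and none higher, with log2 fold changes of the family from -1.71 to -0.17. Of 9 tested Mcm genes, of the replicative helicase and its relatives, 3 were called lower, Mcm6, Mcm2 and Mcm4. Of 7 tested Serpinb genes, which encode intracellular protease inhibitors, 4 were called lower, Serpinb9b, Serpinb9, Serpinb6b and Serpinb1a. Both tested granzymes, Gzma and Gzmb, were called lower. In the Ms4a family Ms4a6d was called higher and Ms4a4b lower among 9 tested. Members of these families are close in sequence, and reads shared between them were not examined here.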
